A study of Mus musculus with 10 samples.

Results

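Brown fat thermogenic genes were examined in the abdominal aorta, as 10 genes chosen by name: Prdm16, Ppargc1a, Dio2, Ucp1, Cidea, Elovl3, Cox7a1, Cox8b, Otop1 and Kng2. Of these, 9 genes were read by 18 of the 45037 gene probe sets on the array, and 17 of the 18 had enough signal to be tested. The 17 stood among 26242 probe sets tested, which cover 12301 genes. Kng2, a kininogen gene, was not analysed here. Gene expression was measured with GeneChip Mouse Genome 430 2.0 arrays, 1 array per mouse, in 6 KCASP1Tg mice and 4 WT mice. KCASP1Tg mice carry the human caspase-1 gene under the keratin 14 promoter, which drives it in keratinocytes of the skin rather than in cells of the vessel or its fat, and they develop dermatitis. WT mice were C57BL/6 littermates, and all mice were female and 16 weeks old, and no treatment is given for either group. The mice are named KCASP1Tg 1 to KCASP1Tg 6 and WT 1 to WT 4 below. The methods state n = 8 for these arrays, and all 10 arrays were used.

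Brown adipocytes are fat cells that burn fatty acids to make heat. Noradrenaline from sympathetic nerves acts through cyclic AMP and CREB to switch on the thermogenic genes, and the uncoupling protein of their mitochondria lets protons return without making ATP. In rodents, fat around the thoracic aorta is brown, while fat around the abdominal aorta holds white and brown adipocytes. The series asks what long-lasting inflammation of the skin does to the abdominal aorta, and the signals of these genes are compared here between the genotypes. Not all of the genes are limited to brown adipocytes, since Cox7a1 and Cox8b are also found in heart and skeletal muscle. In whole tissue, fewer cells of a type and less RNA per cell cannot be told apart.

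Promoters of 4 of the genes are shown: Ucp1, to which the other genes are set below, Cox7a1 and Cox8b, the pair with the closest signals over the mice, and Dio2, which had the most negative fold change. Each run holds the 250 bases before the transcription start from RefSeq on GRCm38.p6, in the direction of transcription, at chr8:83290098-83290347 (plus strand) for Ucp1, chr7:30183921-30184170 (plus) for Cox7a1, chr7:140900447-140900696 (minus) for Cox8b and chr12:90739039-90739288 (minus) for Dio2. Capitals mark the motifs found among the 8 searched.
Ucp1: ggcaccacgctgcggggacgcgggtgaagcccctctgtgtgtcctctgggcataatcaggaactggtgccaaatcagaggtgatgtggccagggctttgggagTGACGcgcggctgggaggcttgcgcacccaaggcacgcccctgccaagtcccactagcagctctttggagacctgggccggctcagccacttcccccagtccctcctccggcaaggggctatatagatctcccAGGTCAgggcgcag
Cox7a1: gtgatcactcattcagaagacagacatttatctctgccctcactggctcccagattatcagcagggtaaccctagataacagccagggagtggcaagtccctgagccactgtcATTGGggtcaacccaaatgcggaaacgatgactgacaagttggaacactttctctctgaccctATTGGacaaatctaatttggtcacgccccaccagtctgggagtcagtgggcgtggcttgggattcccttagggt
Cox8b: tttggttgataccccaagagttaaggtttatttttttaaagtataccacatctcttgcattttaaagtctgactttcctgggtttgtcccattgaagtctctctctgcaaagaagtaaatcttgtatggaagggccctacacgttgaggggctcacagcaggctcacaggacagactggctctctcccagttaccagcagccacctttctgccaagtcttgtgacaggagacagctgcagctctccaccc
Dio2: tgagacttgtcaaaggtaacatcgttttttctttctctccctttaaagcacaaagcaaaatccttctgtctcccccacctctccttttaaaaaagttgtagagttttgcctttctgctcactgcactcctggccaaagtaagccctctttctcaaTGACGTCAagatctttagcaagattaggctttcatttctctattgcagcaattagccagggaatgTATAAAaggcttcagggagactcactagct

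The searched motifs were read on both strands. The half-site of the cyclic AMP response element (CRE) is TGACG, and the full CRE is TGACGTCA, which contains the half-site on both strands. The nuclear receptor half-site is AGGTCA, and both the estrogen-related receptor site TCAAGGTCA and the PPAR response element contain it. The others were the CCAAT box, the TATA box with the letters TATAAA, and the GC box with the letters GGGCGG. The Dio2 promoter held a full CRE at 95 to 88 bases before the start and a TATAAA at 30 to 25 bases. The full CRE, the site that CREB binds, was present in 1.55% of 32851 promoters of the same length, and TATAAA in 12.4%. The Ucp1 promoter held a CRE half-site at 147 to 143 bases and an AGGTCA at 14 to 9 bases, which occur in 17.8% and 14% of the promoters. The Cox7a1 promoter held CCAAT on the opposite strand at 137 to 133 and at 74 to 70 bases, a motif of 33.8% of the promoters, and none of the 8 motifs was in the Cox8b window. The letters describe these windows only, since the elements that control Ucp1 also lie farther upstream. Of the 10 genes, 8 had an entry in the promoter table.

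The sample was checked against its label first. Smooth muscle genes of the vessel wall were bright on every array, with list means (over the genes with a probe set) of 10.54 to 12.09 on KCASP1Tg arrays and 11.92 to 12.15 on WT arrays (log2 scale), and the lowest value was that of KCASP1Tg 4. Endothelial genes were present too, at 10.26 to 10.80 on KCASP1Tg arrays and 10.62 to 10.75 on WT arrays. The labels call the tissue dechorionated abdominal aorta, yet general adipocyte genes such as Adipoq and Fabp4 had list means of 13.35 to 14.29 in KCASP1Tg mice and 13.62 to 14.06 in WT mice, again with KCASP1Tg 4 lowest. Transcripts of heart muscle were high in KCASP1Tg 1 (10.73), KCASP1Tg 2 (9.89) and WT 4 (11.63), and ran from 5.11 to 6.76 in KCASP1Tg 3 to 6, beside 5.08 to 6.09 in WT 1 to 3. Skeletal muscle genes were high in KCASP1Tg 4 and WT 1, liver genes in WT 1 and WT 3, and adrenal cortex genes in KCASP1Tg 2 and WT 3.

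None of the thermogenic genes passed the test between the genotypes. Of the 17 probe sets tested, 0 were higher and 0 lower in KCASP1Tg mice by limma, where 0.0686% of all probe sets tested were called higher and 0% lower. Before adjustment, 0 of the 17 had a limma p under 0.05, against 4.52% (higher) and 3.42% (lower) over all probe sets, and the exact Mann-Whitney test gave 0 as well, with a smallest p of 0.171. The adjusted p-values of the 17 ran from 0.657 to 0.994 (limma). The genotypes overlapped for all 17, whereas 1.98% of all probe sets were higher and 0.949% lower in KCASP1Tg mice without overlap. The log2 fold change was below 0 for 15 of the 17 probe sets and 8 of the 9 genes, with a gene median of -0.38, while 50.4% of all probe sets tested were below 0. This lean changed with the mice and the model used. Without WT 4 the median was 0.10 and 4 of 9 genes were below 0. Without KCASP1Tg 4 it was -0.14 with 5 of 9, and with array weights 0.003 with 4 of 9. All 9 genes were below 0 without WT 2 (median -0.69), without KCASP1Tg 2 (-0.45) and without KCASP1Tg 3 (-0.48). The same held with the general adipocyte list mean as a covariate (-0.53). The 95% intervals were wide, from -2.28 to 1.15 over the 17, and reached beyond a 2-fold change for 6 of the 9 genes.

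**Figure D1:**
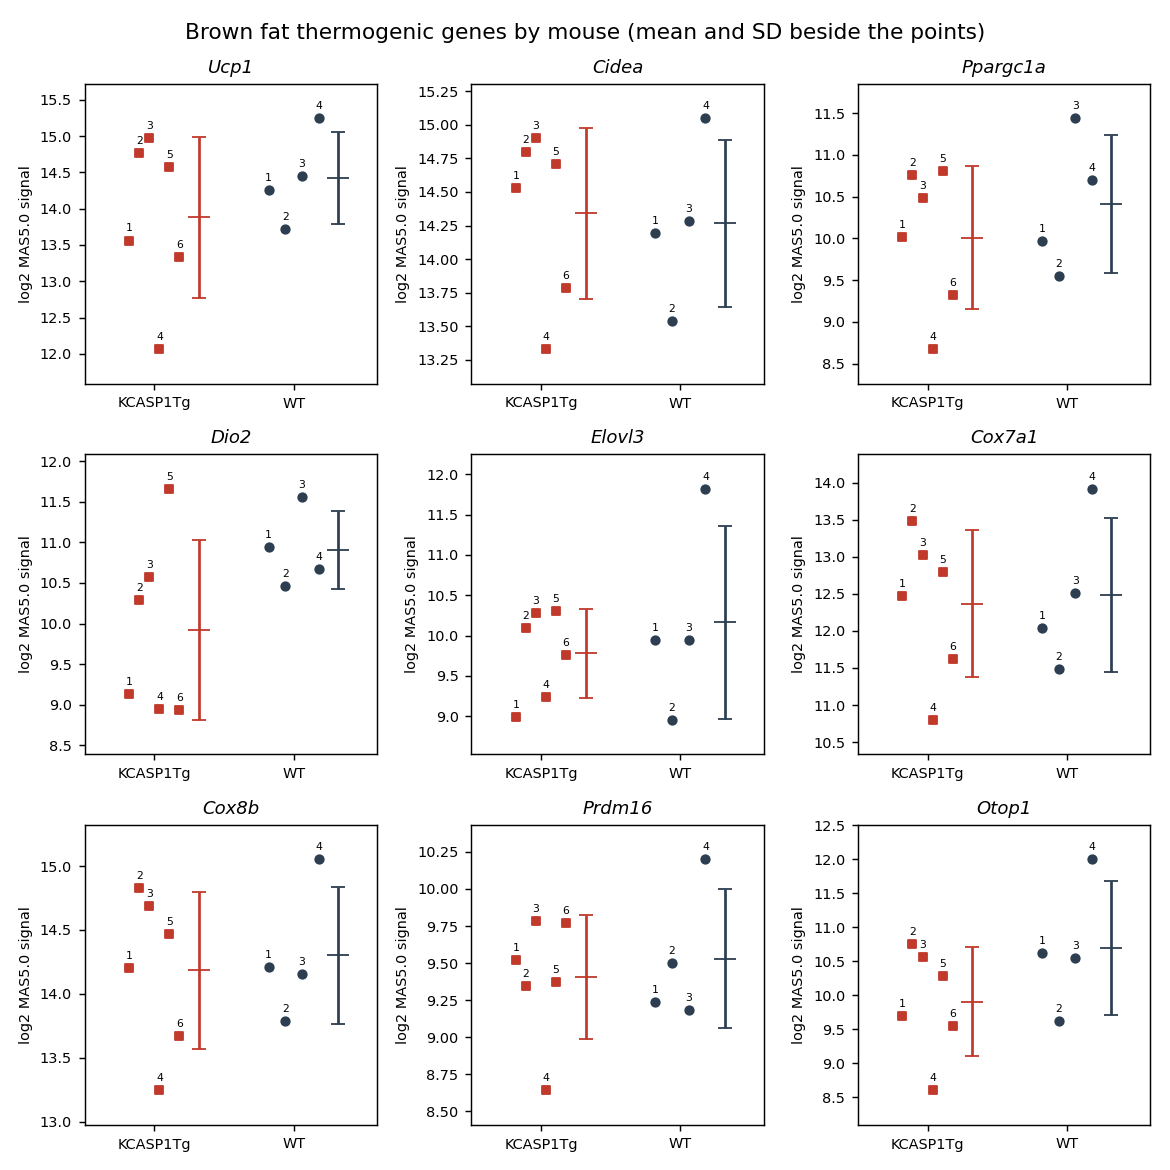
The 9 genes on their own vertical axes, as log2 MAS5.0 signals, in each KCASP1Tg mouse (squares, n = 6) and each WT mouse (circles, n = 4), with the number of the mouse above its point and the mean and SD beside the points. The genotypes overlap for each gene, KCASP1Tg 4 is the lowest point for 7 genes and WT 4 the highest for 7.

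Prdm16, the zinc finger regulator that commits precursor cells to the brown fat fate, was the steadiest of the genes. Its signal had a minimum of 399.8, a median of 697.9 and a maximum of 882.8 in KCASP1Tg mice, and was 603.9, 724.1, 582.6 and 1176.5 in WT mice 1 to 4. KCASP1Tg 4 was lowest and WT 4 highest, and the other 8 mice lay close together. The log2 fold change was -0.13 (standard error 0.26, adjusted p = 0.969 from limma). A further pair of tested Prdm16 probe sets gave -0.13 and 0.15, and the last probe set was too dim to be tested, with a signal of at least 100 on 3 arrays.

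Ppargc1a, the coactivator that drives mitochondrial biogenesis and Ucp1 transcription, ran from 408.1 over a median of 1232 to 1791 in KCASP1Tg mice, and was 1004.5, 751.6, 2775 and 1656 in WT mice 1 to 4. WT 3 had the highest signal and KCASP1Tg 4 the lowest, 6.8-fold apart. The means were 1173 ± 574 (SD, n = 6) in KCASP1Tg mice and 1547 ± 903 (SD, n = 4) in WT mice. The 5 probe sets of Ppargc1a gave log2 fold changes from -0.56 to -0.27 (adjusted p from 0.877 to 0.948, limma), and they followed one another over the mice with correlations of 0.87 to 0.97. Without WT 3 the log2 fold change of the brightest probe set was -0.06, and without KCASP1Tg 4 it was -0.14.

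Dio2, the deiodinase that converts thyroxine to the active hormone inside brown adipocytes, had the most negative fold change of the 9 genes. It ran from 487.3 over a median of 907.6 to 3238 in KCASP1Tg mice, and was 1961, 1407, 3018 and 1626 in WT mice 1 to 4. KCASP1Tg 1, KCASP1Tg 4 and KCASP1Tg 6 had signals of 562.9, 492.6 and 487.3, far below every WT mouse, KCASP1Tg 2 also lay below them, and KCASP1Tg 5 was the highest of all. The means were 1259 ± 1063 (SD, n = 6) in KCASP1Tg mice and 2003 ± 714 (SD, n = 4) in WT mice. The log2 fold change was -0.98 (95% interval -2.15 to 0.18, adjusted p = 0.706 from limma, exact Mann-Whitney p = 0.171), and the other probe sets gave -1.08 and -0.97. The direction was the same under each of the 26 alternatives, from -1.33 to -0.77, with adjusted p-values of 0.300 and above. Some of the 26, such as another signal filter or test, cannot move the fold change.

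Ucp1, the uncoupling protein itself, was bright on every array and varied 9.07-fold between the mice. Its signal ran from 4280 over a median of 18240 to 32055 in KCASP1Tg mice, and was 19590, 13546, 22356 and 38829 in WT mice 1 to 4. KCASP1Tg mice fell apart into KCASP1Tg 2, 3 and 5, each above WT 1, WT 2 and WT 3, and KCASP1Tg 1, 4 and 6, each below every WT mouse. The means were 18504 ± 11107 (SD, n = 6) in KCASP1Tg mice and 23580 ± 10811 (SD, n = 4) in WT mice. The log2 fold change of -0.54 (standard error 0.55, 95% interval -1.75 to 0.67, adjusted p = 0.897 from limma) was smaller than the spread between mice. Without KCASP1Tg 4 it was -0.18, and without WT 4 it was -0.27.

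Cidea, a lipid droplet protein of brown adipocytes, was the only gene of the 9 with a positive fold change. It ran from 10288 over a median of 25197 to 30638 in KCASP1Tg mice, and was 18706, 11875, 19968 and 33890 in WT mice 1 to 4. The log2 fold change was 0.08 (95% interval -0.73 to 0.88, adjusted p = 0.994 from limma). Elovl3, the elongase that makes very long fatty acids in brown fat, ran from 509.8 over a median of 982.1 to 1260.5 in KCASP1Tg mice, and was 982.2, 496.4, 982.0 and 3617 in WT mice 1 to 4. A single mouse, WT 4, stood far above all others, and the log2 fold change of -0.38 (adjusted p = 0.932, limma) turned to 0.17 without it.

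Cox7a1 and Cox8b are the isoforms of cytochrome oxidase subunits found in brown fat, and also in heart and skeletal muscle. Cox7a1 ran from 1785 over a median of 6386 to 11486 in KCASP1Tg mice, and was 4194, 2875, 5867 and 15500 in WT mice 1 to 4. Cox8b ran from 9711 over a median of 20719 to 29042 in KCASP1Tg mice, and was 18900, 14166, 18198 and 33992 in WT mice 1 to 4. Both were highest in WT 4 and lowest in KCASP1Tg 4. The log2 fold changes were -0.12 for Cox7a1 (95% interval -1.40 to 1.15) and -0.12 for Cox8b (95% interval -0.87 to 0.64), with adjusted p-values of 0.994 and 0.985 (limma). Of the 3 mice with high heart muscle transcripts, KCASP1Tg 2 and WT 4 had the highest Cox7a1 and Cox8b of their genotypes, at 11486 and 29042 in KCASP1Tg 2 and at 15500 and 33992 in WT 4, and KCASP1Tg 1 had 5671 and 18807. KCASP1Tg 3, where heart muscle transcripts were low, had 8376 and 26428. Skeletal muscle transcripts were high in KCASP1Tg 4 and WT 1. The part of heart and skeletal muscle transcripts in the Cox7a1 and Cox8b signals was not tested.

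Otop1, a proton channel, ran from 389.5 over a median of 1036 to 1735 in KCASP1Tg mice, and was 1577, 788.0, 1496 and 4094 in WT mice 1 to 4. The highest and lowest mouse, WT 4 and KCASP1Tg 4, were 10.5-fold apart, the widest range of the 9 genes. The log2 fold change was -0.79 (95% interval -1.89 to 0.31, adjusted p = 0.768 from limma), and without WT 4 it was -0.36.

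**Figure D2:**
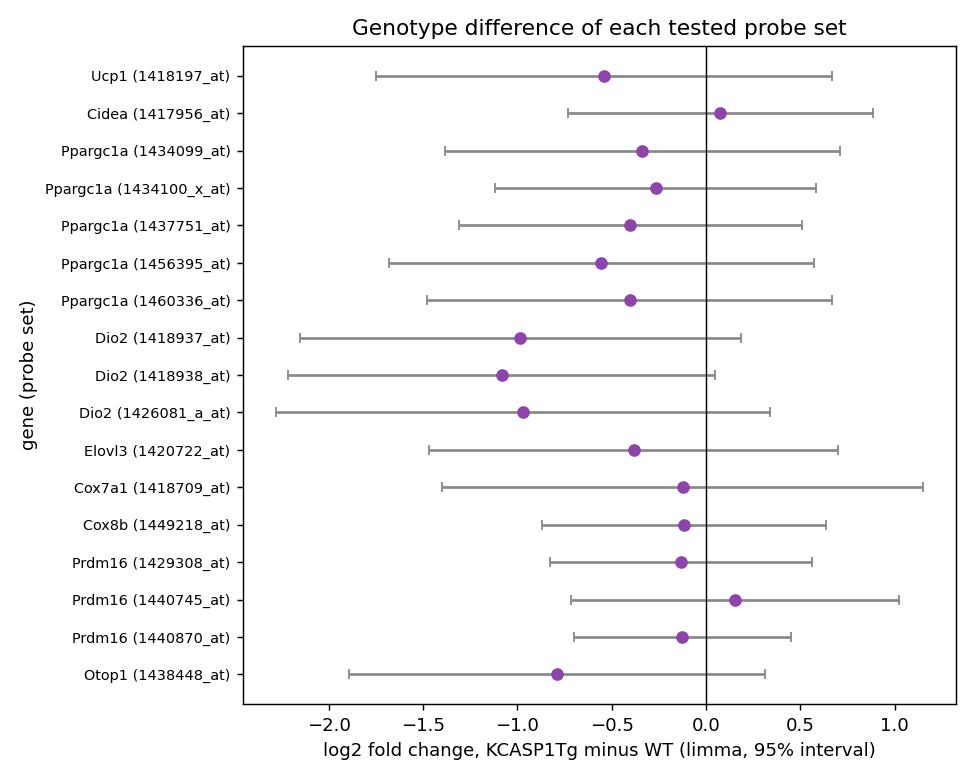
Log2 fold change of KCASP1Tg over WT mice (horizontal axis) for each of the 17 probe sets tested, with 95% intervals from limma as bars, and the gene and probe set down the page. Each interval crosses 0, and the Dio2 probe sets lie farthest from it, at -0.97 to -1.08.

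The spread between mice was wide in both genotypes. The highest signal was at least 4 times the lowest for 13 of the 17 probe sets, against 12.3% of all probe sets tested, and the median of this ratio was 6.80 over the 9 genes, against 1.92 over all probe sets tested. In KCASP1Tg 4, all 9 genes were below their mean over the 10 mice, with an average deviation of -1.29 on the log2 scale. In KCASP1Tg 3 and WT 4, all 9 were above it, by 0.46 and 1.06 on average. KCASP1Tg 6 (-0.60), WT 2 (-0.50) and KCASP1Tg 1 (-0.34) lay on the low side, and KCASP1Tg 2 (0.44), KCASP1Tg 5 (0.42) and WT 3 (0.32) on the high side, with WT 1 at 0.03. KCASP1Tg 4 was the lowest array for 7 of the 9 genes, as it was for 20.05% of all probe sets tested, and WT 4 was the highest for 7, as it was for 16.7%. In KCASP1Tg 4 the general adipocyte, smooth muscle and endothelial lists were at their lowest as well, and skeletal muscle genes were high; the part of this in the low thermogenic signals was not tested.

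**Figure D3:**
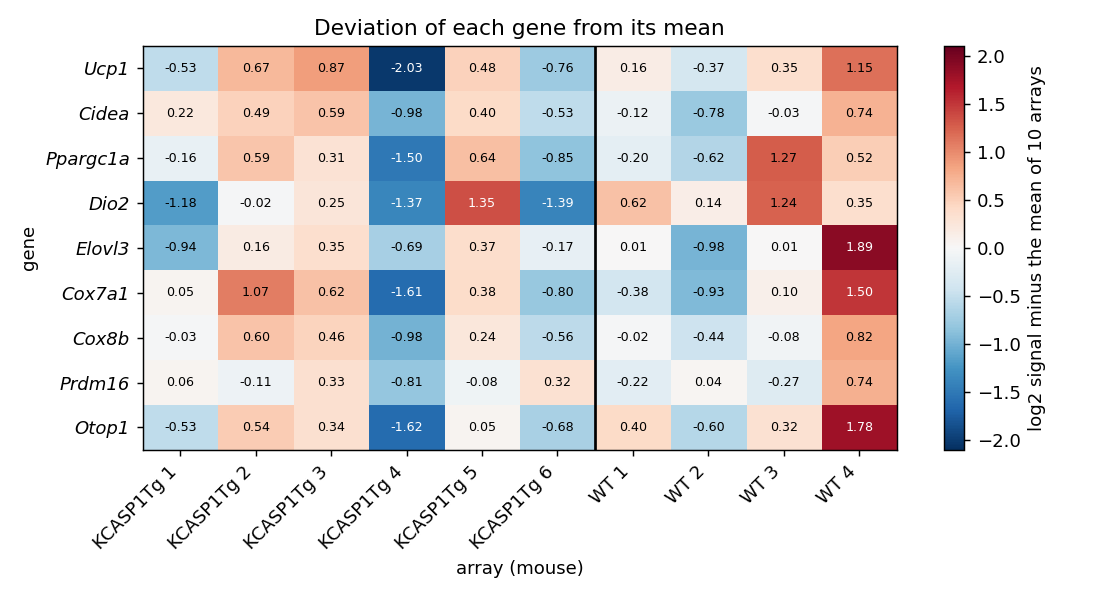
Log2 signal of each gene (rows) in each mouse (columns, KCASP1Tg left of the line and WT right of it) minus the gene's mean over the 10 arrays, with red above and blue below the mean. KCASP1Tg 4 is below the mean in every row, KCASP1Tg 3 and WT 4 are above it in every row, and Dio2 in KCASP1Tg 1 and 6 is lower than the rest of those columns.

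Most of the genes varied together from mouse to mouse. Over the 10 mice, 8 correlations with Ucp1 were computed on log2 signals with permutation tests and Benjamini-Hochberg adjustment over the 8. Cox8b followed Ucp1 most closely (r = 0.94, adjusted permutation p = 0.00016; rho = 0.93, adjusted permutation p = 0.0012), then Otop1 (r = 0.93, p = 0.000427; rho = 0.88, p = 0.0028, adjusted permutation tests). Cox7a1 had r = 0.90 (p = 0.000427; rho = 0.93, p = 0.0012, adjusted permutation tests) and Cidea r = 0.87 (p = 0.00124; rho = 0.90, p = 0.00219, adjusted permutation tests). These 4 genes kept r values of 0.75 to 0.87 without KCASP1Tg 4 and KCASP1Tg 6, the mice farthest from the Ucp1 median, and had 0.93 to 0.95 over all 10 mice when each genotype's mean was subtracted first.

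The r values of the other 4 genes were 0.85 and below. Ppargc1a had r = 0.85 (p = 0.0024; rho = 0.73, p = 0.0275, adjusted permutation tests), and its r of 0.61 over the 8 mice without the 2 farthest did not pass (adjusted permutation p = 0.141), while its r of 0.73 without KCASP1Tg 4 alone did (adjusted permutation p = 0.0355). Elovl3 had r = 0.73 (p = 0.0236; rho = 0.84, p = 0.00614, adjusted permutation tests), which was 0.91 without them. Dio2 had r = 0.72 (p = 0.0211; rho = 0.61, p = 0.0757, adjusted permutation tests), which did not hold without those mice (r = 0.44, p = 0.286) or without KCASP1Tg 4 alone (r = 0.63, p = 0.0797, adjusted permutation tests), so this relation rested on them. Prdm16 did not pass (r = 0.63, p = 0.0529; rho = 0.42, p = 0.232, adjusted permutation tests), and without KCASP1Tg 4 its r was 0.25. Whether these correlations differ from one another was not tested.

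**Figure D4:**
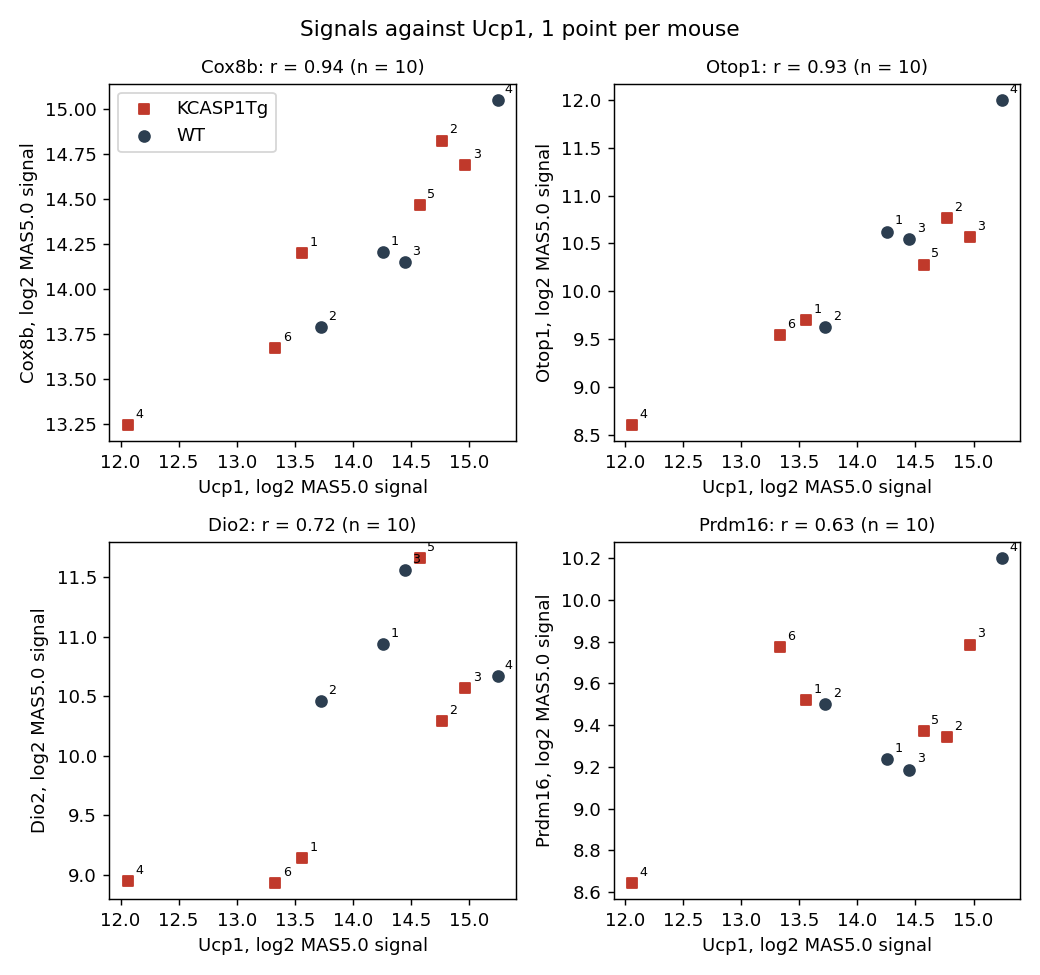
Log2 MAS5.0 signal of Cox8b, Otop1, Dio2 and Prdm16 (vertical axes) against that of Ucp1 (horizontal axes) in each KCASP1Tg mouse (squares, n = 6) and WT mouse (circles, n = 4), numbered by mouse. Cox8b and Otop1 climb with Ucp1 over the whole range (r = 0.94 and 0.93), Dio2 splits into a low group of KCASP1Tg 1, 4 and 6 and a high group, and Prdm16 shows little order once KCASP1Tg 4 is set aside.

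Among all 36 pairs of the 9 genes r was above 0. The closest pair was Cox7a1 and Cox8b (r = 0.98, rho = 0.94), followed by Cidea and Cox7a1 (r = 0.96, rho = 0.98). Dio2 and Ppargc1a, both direct targets of the cyclic AMP pathway, had r = 0.79 (p = 0.0182; rho = 0.73, p = 0.0412, permutation tests adjusted over the 36 pairs), which was 0.62 without KCASP1Tg 4 and WT 3. For Dio2 this was the highest r among the 9 genes, while Ppargc1a had 0.85 with Ucp1 and 0.81 with Cox7a1. Dio2 and Prdm16 had the lowest r of the 36, at 0.10. Without KCASP1Tg 4 the r of Prdm16 was -0.36 with Dio2 and -0.21 with Ppargc1a, and the other pairs stayed above 0. Without both KCASP1Tg 4 and WT 4, Prdm16 had r = -0.51 with Otop1 and -0.17 with each of Cox7a1 and Cox8b. Without KCASP1Tg 1, KCASP1Tg 2 and WT 4, the mice with heart muscle transcripts, Ucp1 had r = 0.95 with Cox7a1 and 0.97 with Cox8b. These 7 mice still hold KCASP1Tg 4 and WT 1, where skeletal muscle transcripts were high. The part of muscle transcripts in these r values was not tested.

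Ucp1 shared this pattern with many genes: 297 of 12294 genes, or 2.42%, had r of at least 0.9 with it over the 10 mice, where the median was -0.05. The 10 most like it were Med9 (0.99), Mccc1, Proca1, Amotl2, Tgoln1, Mtln, Prkar2b, Echdc3, Mme and Lonp2 (0.97 each). Mccc1 is an enzyme of leucine breakdown, Mtln a small protein of mitochondria and Prkar2b the regulatory subunit of protein kinase A that prevails in fat. With each genotype's mean subtracted, Hagh (0.99), Med9, Glrx2, Prkar2b, Acadm, Hnmt, Tgoln1, Ifi27, Ndufb3 and Fastk came first. Points share the dissection and the array, so these values describe likeness only.

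The wider machinery of the brown adipocyte and the paralogs were examined through 8 gene lists with 96 genes tested. By limma 0 of the 96 passed the test in either direction, 6 (6.25%) had an unadjusted limma p under 0.05, against 4.52% higher and 3.42% lower over all probe sets tested, and 3 (3.12%) had an unadjusted exact Mann-Whitney p under 0.05, against 4.75% higher and 2.90% lower. Both shares lie below the background of the 2 directions together. Of 14 transcriptional regulators tested, 4 had a positive and 10 a negative log2 fold change, with a median of -0.05, where the median of all genes tested was 0.00. Zic1, Lhx8 and Tbx15 of the same list were too dim to be tested, with mean signals of 11, 81 and 38. Pparg, the master regulator of all adipocytes, averaged 3525 in KCASP1Tg mice and 3406 in WT mice, and Cebpb averaged 7311 in KCASP1Tg mice and 7340 in WT mice. Of 9 genes of beta-adrenergic signalling, 5 were positive and 4 negative (median 0.06). Gnas, which encodes the stimulatory G protein, averaged 23471 in KCASP1Tg mice and 21657 in WT mice, and Prkar2b averaged 5200 in KCASP1Tg mice and 7143 in WT mice (log2 fold change -0.51, adjusted p = 0.770, limma).

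Genes that supply and burn fuel had fold changes centred near 0. Of 18 genes of fuel uptake and fatty acid oxidation, 7 were positive and 11 negative, with a median of -0.10. Lpl, the lipase that releases fatty acids from blood lipids, averaged 37240 in KCASP1Tg mice and 36229 in WT mice, and Acadm, a dehydrogenase of beta-oxidation, averaged 26695 in KCASP1Tg mice and 25697 in WT mice. Of 18 respiratory chain genes, 11 were positive and 7 negative, with a median of 0.02. Of these lists, 7 of 18 fuel genes and 8 of 18 respiratory chain genes had r of at least 0.9 with Ucp1, against 2.42% of all genes. The list mean had r = 0.94 with Ucp1 for the fuel genes (rho = 0.93, adjusted permutation p = 0.0002 for r and 0.002 for rho, over 20 relations) and 0.89 for the respiratory chain genes (rho = 0.89, adjusted permutation p = 0.0015 and 0.00377). Without KCASP1Tg 4 and KCASP1Tg 6 the r values were 0.89 and 0.84. Likeness to Ucp1 was not limited to these lists: the mean of the general adipocyte list had r = 0.81 (rho = 0.81, adjusted permutation p = 0.0111 and 0.0183), which was 0.55 without those mice, and that of the smooth muscle list had r = 0.63 (rho = 0.12, adjusted permutation p = 0.178 and 0.912), which was -0.22 without them. Of the 20 relations, the beta-adrenergic list mean had the highest r, at 0.96 (rho = 0.94, adjusted permutation p = 0.0004 and 0.0019). The beige list mean had the lowest, at -0.89 (rho = -0.92, adjusted permutation p = 0.00224 and 0.0024). That mean covers 6 genes, of which Tmem26, Tnfrsf9 and Cited1 were too dim to be tested (r = -0.55, -0.49 and -0.72 with Ucp1). The 3 beige genes tested had r near 0 with Ucp1, at -0.12 (Tbx1), -0.15 (Klhl13) and 0.02 (Hoxc9). The main axis of variation over all probe sets tested held 35.5% of the variance. Its r with Ucp1 was 0.78 (rho = 0.89, adjusted permutation p = 0.0167 and 0.00377). Whether the lists differ in their r was not tested.

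**Figure D5:**
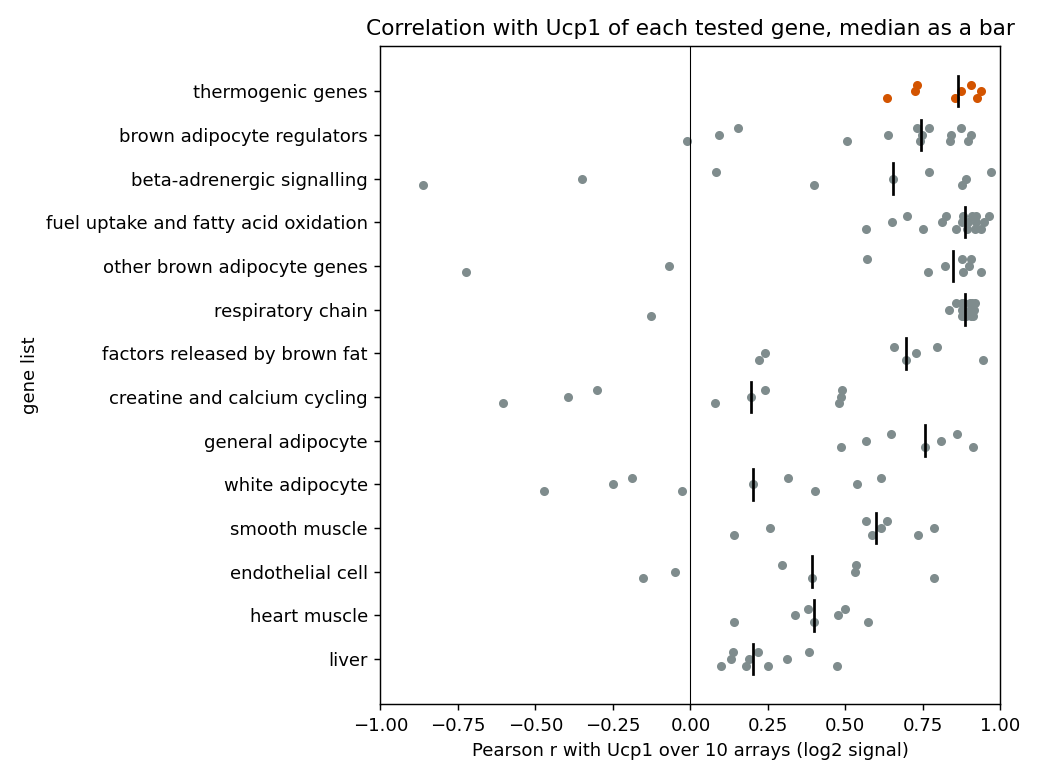
Pearson r with Ucp1 over the 10 arrays (horizontal axis) of each tested gene (points) in each gene list (rows), with the median of the list as a bar. The list medians are 0.86 for the thermogenic genes, 0.89 for the fuel genes, 0.89 for the respiratory chain genes, 0.76 for the general adipocyte list, 0.60 for smooth muscle, 0.40 for heart muscle and 0.20 for both the white adipocyte and the liver list.

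Other heat-producing cycles and released factors were read the same way. Of 9 genes of creatine and calcium cycling, 1 was positive and 8 negative, with a median of -0.37, and their list mean had r = 0.08 with Ucp1 (rho = -0.03, adjusted permutation p = 0.875 and 0.945). Gamt, the last enzyme of creatine synthesis, ran from 249.9 to 367.4 in KCASP1Tg mice and was 689.1, 400.2, 532.0 and 393.0 in WT mice 1 to 4, without overlap. Its log2 fold change was -0.66 (adjusted p = 0.342, limma; exact Mann-Whitney p = 0.00952, the smallest that 6 against 4 mice can give). Its highest signals were in WT 1 and WT 3, the mice with liver transcripts, and the part of these in the difference was not tested. Of 7 released factors tested, 1 was positive and 6 negative (median -0.21), with Nrg4, a growth factor that brown fat sends to the liver, at 2408 in KCASP1Tg mice and 2949 in WT mice.

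S100b, a calcium-binding protein of glia that mouse brown adipocytes also make, was the other gene of the brown fat lists whose genotypes did not overlap. It ran from 494.8 to 903.7 in KCASP1Tg mice and was 968.5, 1068, 1080 and 1224 in WT mice 1 to 4. Its log2 fold change was -0.61 (95% interval -1.01 to -0.22, adjusted p = 0.374 from limma, exact Mann-Whitney p = 0.00952). Gamt and S100b were named after their values were seen, and 0.949% of all probe sets tested were lower without overlap. The list of 10 other brown adipocyte genes that holds S100b had 3 positive and 7 negative fold changes, with a median of -0.18.

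Paralogs of the thermogenic genes gave no call either, with 5 of 14 tested genes positive, 9 negative and a median of -0.16. The most negative was Cideb, of the Cidea family, which averaged 128 in KCASP1Tg mice and 322 in WT mice (log2 fold change -1.36, 95% interval -2.46 to -0.26, adjusted p = 0.505 from limma, exact Mann-Whitney p = 0.114). Kng1, the kininogen paralog of Kng2, averaged 685 in KCASP1Tg mice and 1891 in WT mice (log2 fold change -0.98, adjusted p = 0.865, limma). Both were highest in WT 1, a mouse with liver transcripts, and the part of these in the signals was not tested. Ucp3 averaged 906 in KCASP1Tg mice and 1026 in WT mice. Cox7a2 and Cox8a, the widely expressed isoforms, had log2 fold changes of 0.01 and -0.01. Cidec, a Cidea paralog that also stands in the general adipocyte list, had 0.25 and Ppargc1b 0.18 (adjusted p = 0.886 and 0.973, limma). Elovl6, an elongase of long-chain fatty acids, averaged 7404 in KCASP1Tg mice and 13962 in WT mice, a log2 fold change of -0.80 that did not pass (adjusted p = 0.700, limma). Elovl5, of the same family, averaged 9621 in KCASP1Tg mice and 11914 in WT mice (log2 fold change -0.29, 95% interval -0.57 to -0.01, adjusted p = 0.596 from limma). Among the remaining paralogs, the log2 fold changes were -0.39 for Elovl4, -0.20 for Mecom, -0.12 for Elovl7, 0.13 for Elovl1 and 0.15 for Cox7a2l. Dio1, Elovl2, Otop2 and Otop3 were too dim to be tested, and Ucp2 and Dio3 were not analysed here.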

How the data were processed

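Total RNA of the abdominal aorta of 6 KCASP1Tg and 4 WT mice was hybridised to 1 array per mouse. The deposited values are linear signal intensities that the authors computed per probe set with MAS 5.0, including mismatch correction, and scaled to a trimmed mean of 500 on each array. Fluorescence arrays have no read depth, and their number limits the precision. The table holds 45101 probe sets, of which 64 controls were left out. Genes were named only from probe sets with 1 symbol in the platform annotation (34945), updated by gene identifier. Before log2, 1 was taken as the floor of the signals. A probe set entered the test if 4 or more arrays reached a signal of 100, which left 26242. They were fitted in limma 3.58.1 under R 4.3.3 (genotype as the term, Benjamini-Hochberg adjustment over all of them, adjusted p under 0.05), beside a two-sided exact Mann-Whitney test. The steps were tested on simulated data. Where a gene had more than 1 probe set, the brightest on average stands for it. Correlations were tested with 100000 permutations.

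The thermogenic genes and the gene lists were chosen with earlier results of these data known. Named are all thermogenic genes, their paralogs, up to 4 genes of each list with the highest signals, and the 10 genes most like Ucp1; the exceptions are stated. Alternatives covered the floor, a pseudocount, the filter, normalization, the test, array weights, list means as covariates and arrays left out. Batches are not given in the sources used here. P-values of the genotype tests set the difference between genotypes against the spread between mice.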

Additional observations from a re-analysis of the deposited data

How the results depend on the processing

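The count of thermogenic probe sets called was 0 in both directions under every alternative run. Over all probe sets, 18 were higher and 0 lower. The higher count was 204 with array weights, 0 by the exact Mann-Whitney test, 2 without KCASP1Tg 1, KCASP1Tg 2 and WT 4, 29 with the general adipocyte list as a covariate, and 10 to 61 with each mouse left out. The lower count was 63 with array weights, 9 with that covariate, 3 with an intensity trend or a signal of at least 200, 2 with a pseudocount of 50 or no filter, 1 with a floor of 16, quantile normalization or without KCASP1Tg 3 and WT 4, and 0 to 8 with each mouse left out. Same-numbered mice did not deviate together (correlations of 0.11, -0.31, -0.43 and -0.33), and the numbers were not taken as pairs. So few correlations cannot tell whether a number marks a shared batch. With the replicate block over the 8 arrays numbered 1 to 4, 0 were higher and 0 lower, against 11 and 1 in the same 8 arrays without the block, and Ucp1 had a log2 fold change of -0.58. The 8-array fit without the block and 2 sets of correlations, without KCASP1Tg 4 and without the mice with heart muscle transcripts, were chosen after seeing the data.

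Of 234 alternative fold changes of the 9 genes, 211 kept their direction and 23 reversed, and in all of them the adjusted p was 0.243 or above. These counts include alternatives that cannot move a fold change, namely the signal filters, the intensity trend and the Mann-Whitney test. The replicate block also repeats the fold changes of the same arrays without it. Ucp1, Ppargc1a, Dio2 and Otop1 did not reverse: with each mouse left out, Ucp1 ran from -0.77 to -0.18, Ppargc1a from -0.69 to -0.064 (without WT 3), Dio2 from -1.33 to -0.77 and Otop1 from -1.15 to -0.36. With array weights Elovl3 had 0.0030, Cox7a1 0.45, Cox8b 0.23 and Prdm16 0.10. Without KCASP1Tg 3 and WT 4 they had 0.067, 0.22, 0.033 and 0.022. Without KCASP1Tg 1, KCASP1Tg 2 and WT 4, Elovl3 had 0.29, Cox7a1 0.047 and Prdm16 0.085. Cidea had -0.090 with the adipocyte covariate. With each mouse left out, Cidea ran from -0.17 to 0.34, Elovl3 from -0.79 to 0.17, Cox7a1 from -0.46 to 0.35, Cox8b from -0.29 to 0.13 and Prdm16 from -0.24 to 0.10. The values above 0 of Elovl3, Cox7a1, Cox8b and Prdm16 came without WT 4, and also without KCASP1Tg 4 for the last 3 and without KCASP1Tg 6 for Cox7a1. The cause was not tested. Of 32 alternative correlations with Ucp1, 28 kept their side of the threshold. Those of Ppargc1a (0.61) and Dio2 (0.44) without the 2 farthest mice, Dio2 (0.63) without KCASP1Tg 4 and Elovl3 (0.73) without KCASP1Tg 1, KCASP1Tg 2 and WT 4 no longer passed.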

Other observations

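Genes of white fat gave no call between the genotypes: of 9 tested, 2 had a positive and 7 a negative log2 fold change, with a median of -0.16. Lep, the leptin gene, named after its values were seen, averaged 438 in KCASP1Tg mice and 252 in WT mice (log2 fold change 0.70, adjusted p = 0.743, limma), and Retn, the resistin gene, averaged 19471 in KCASP1Tg mice and 21263 in WT mice. Of 7 genes for beige adipocytes, 6 had a probe set and 3 were bright enough to be tested. The list mean over the 6, dim genes included, ran from 6.55 to 7.79 in KCASP1Tg mice and from 6.88 to 7.26 in WT mice.

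The genes most like Dio2 were fewer than those like Ucp1. Only 2 of 12293 genes had r of at least 0.9 with Dio2, Clec11a (0.91) and Qtrt2 (0.90), which were chosen after their values were seen. Ffar4, a receptor for long-chain fatty acids, had r = 0.87 with Dio2 and 0.91 with Ppargc1a. Epsti1, an interferon-induced gene placed among the other brown adipocyte genes and also named after its values were seen, ran against Ucp1 (r = -0.73) and averaged 738 in KCASP1Tg mice and 209 in WT mice (log2 fold change 1.10, adjusted p = 0.733, limma). A single mouse, KCASP1Tg 4, had 2877, and it was also the mouse with the lowest Ucp1. The other KCASP1Tg mice had 255.7 to 474.7, beside 145.6 to 268.1 in WT mice. These values are descriptions over 10 mice.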
